A study of Rattus norvegicus with 6 samples.

Results

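Aminoacyl-tRNA synthetases are the enzymes that join each amino acid to its tRNA, the step that makes amino acids available to the ribosome. Most amino acids have a cytosolic enzyme and a separate mitochondrial enzyme, encoded by different nuclear genes. The 35 genes described here were taken by name, and no value from the arrays enters the rule that chose them: 19 cytosolic synthetases (symbols that end in 1, with Farsa and Farsb) and 16 mitochondrial synthetases (symbols that end in 2). All 19 cytosolic genes and 13 of the 16 mitochondrial genes had a value, so that 32 of the 12603 genes on the arrays were members. Lars2, Mars2 and Pars2 were not analysed here.

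INS-1 is an insulin-secreting line from a rat insulinoma that stands in for pancreatic β-cells. The cells studied carried a fusion of GFP to insulin 2 bearing the Akita mutation, C96Y, switched on by doxycycline (Dox). All groups were 1 clone, #4S2, kept under G418 and hygromycin selection. The groups were cells given Dox with 5 μM 4μ8c, which inhibits the endoribonuclease activity of the endoplasmic reticulum (ER) stress sensor IRE1, cells given Dox alone, and untreated cells. Treatment lasted 48 h, Dox is labelled as 4 μg/ml (the published methods give a lower concentration), and each of 2 experiments contributed an array to every group (6 arrays, 2 in each group). Both Dox groups expressed the mutant insulin, so that effects of doxycycline itself and of mutant proinsulin cannot be told apart.

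The values are log2 array signals that were centred on the median of each probeset within an experiment. This keeps differences between arrays of one experiment but removes levels, so that no gene can be called more or less abundant than another, and neither the β-cell identity of the line nor the absence of other cell types can be checked by level. Each value below is therefore a log2 difference from the untreated array of the same experiment, given for experiment 1 and then experiment 2. The term log2 change stands for the average of the 2 experiments, with a standard error (SE) from limma (3 groups and a term for the experiment, Benjamini-Hochberg adjustment over all 12603 genes). An adjusted p under 0.05 is what is meant below by passing, or by a gene called higher or lower. In experiment 1, 6487 of 25476 probesets (25.5%) carried exactly the same value on all 3 arrays, and a member value of 0.00 there is such a tie or a tie with the untreated array.

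The second Dox array, Dox replicate 2, was unlike the rest. Over all probesets its values had an SD of 0.176, with 0.0874 (Dox+4μ8c) and 0.1078 (untreated) on the other arrays of experiment 2. In experiment 1 the SDs were 0.0502 to 0.1175, but the 2 experiments differ in centring and exact ties, which affects SDs compared between them. Its difference between 5′ and 3′ probesets of 4 poly-A spike-in RNAs departed from that of the untreated array of its experiment by a median of -0.50, with -0.13 for Dox replicate 1, and with 0.04 and -0.25 for the Dox+4μ8c arrays. Of 8 β-cell markers 2 were lower with Dox than in untreated cells, beside 2.01% of all genes. These were Mafa at -0.56 and Iapp at -0.25 (limma adjusted p = 0.0090 and 0.041). The change with Dox was below 0 for 7 of the 8 markers, and 5 of these decreases had an unadjusted limma p below 0.05. Against untreated cells 0 of 8 passed with Dox+4μ8c. Between the 2 treated groups 1 of the 8 passed, Mafa, with Dox+4μ8c above Dox by 0.62 (limma adjusted p = 0.019). Of 5 measured markers of other cell types 1 was lower in both groups, the α-cell hormone gene Gcg, at -1.36 with Dox+4μ8c and -2.22 with Dox. The part of these shifts in the changes of the synthetases was not tested.

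The ER stress treatment itself was read from genes known to respond to it. Trib3, a pseudokinase gene induced by ATF4, was higher than in untreated cells by 2.80 ± 0.09 (SE) with Dox+4μ8c and by 2.88 ± 0.09 with Dox. Ddit3, which encodes CHOP, was higher by 1.20 in both groups. The published qPCR on these cells differs: it found no significant change of CHOP mRNA at 48 h. It also found the induction of Trib3 reduced by the inhibitor. Xbp1, the gene whose mRNA IRE1 splices, was higher by 0.41 with Dox+4μ8c (adjusted p = 0.033) and by 0.30 with Dox (adjusted p = 0.046). Dnajb9, an ER co-chaperone gene that depends on XBP1, changed by 0.20 with Dox+4μ8c (adjusted p = 0.42), against 1.25 ± 0.10 with Dox (adjusted p = 0.0024), and Dox+4μ8c was lower than Dox by -1.05 ± 0.10 (adjusted p = 0.013).

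Most cytosolic synthetase mRNAs rose when mutant proinsulin was induced, and no mitochondrial one passed as higher. Against untreated cells, Dox left 12 of the 19 cytosolic synthetases higher and 0 lower (15 at an unadjusted p under 0.05), beside 4.42% of all genes that were called higher and 2.01% that were called lower. Of the 13 mitochondrial synthetases, 0 were higher (1 at an unadjusted p under 0.05) and 1, Fars2, was lower. The median log2 change was 0.47 over the cytosolic genes and 0.01 over the mitochondrial genes, with 0.01 over all genes. The difference between the medians of the 2 forms was 0.49 in experiment 1 and 0.33 in experiment 2. In experiment 1 the mitochondrial median was 0.00, and 3 of the 13 mitochondrial genes tied exactly with untreated. These are descriptions of the lists, whose members were named with earlier results of these arrays known. Without the experiment term in the fit, 1 of the 19 cytosolic genes passed, Farsb, and 14 had an unadjusted p under 0.05. With the term but without untreated replicate 1, the count was 5. Over 12 alternative fits, of which some repeat each other, the change with Dox was 0.82 to 1.08 for Nars1, 0.63 to 0.71 for Tars1 and 0.23 to 0.28 for Farsb. No single call held in all of them.

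**Figure D1:**
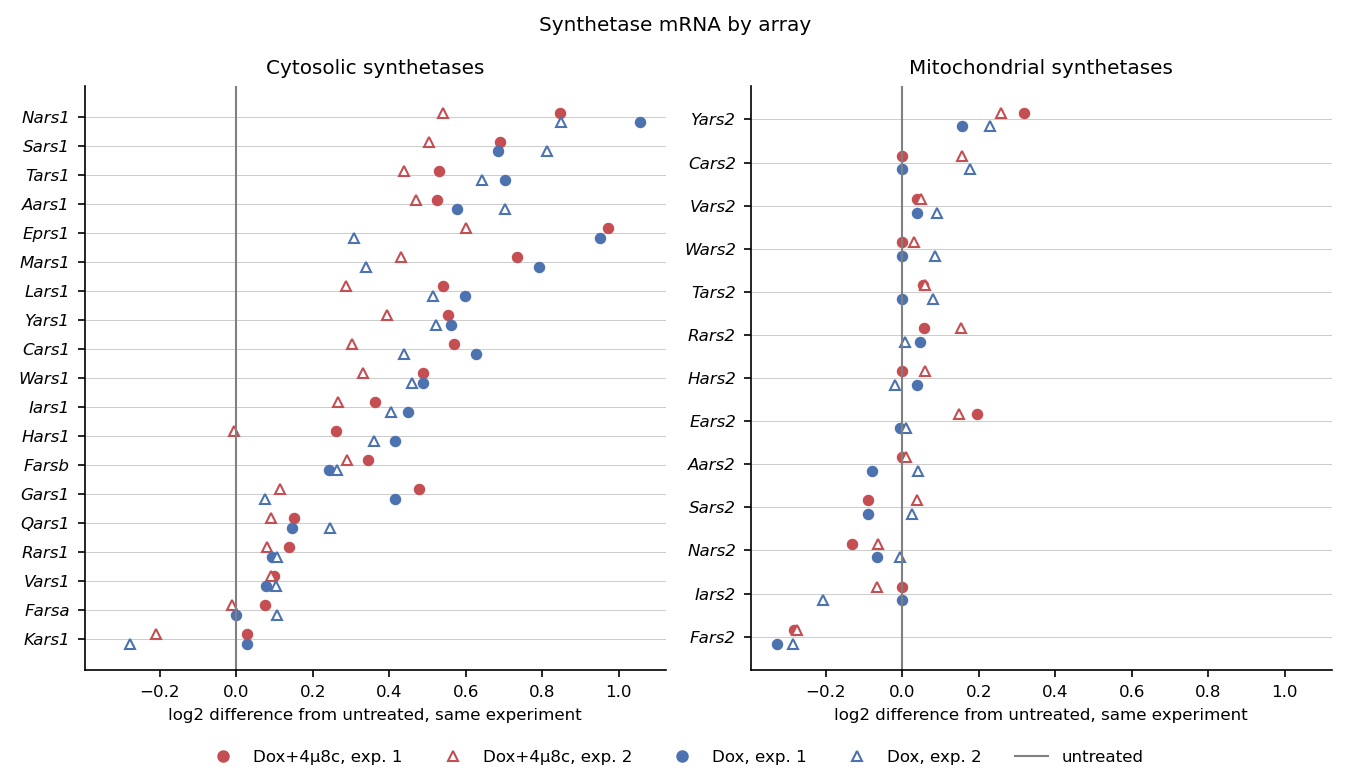
Log2 difference of each synthetase from the untreated array of the same experiment (grey line at 0), for Dox+4μ8c (red) and Dox (blue) in experiment 1 (filled circles) and experiment 2 (open triangles), with cytosolic genes left, mitochondrial genes right and genes ordered by their change with Dox. Cytosolic changes with Dox reached 0.95 (Nars1), and mitochondrial changes lay between -0.31 (Fars2) and 0.19 (Yars2).

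The largest change among the members was that of Nars1, which charges tRNA with asparagine. Its values were 0.85 and 0.54 with Dox+4μ8c, against 1.05 and 0.85 with Dox, so that each treated array lay above the untreated array of its experiment. It rose 1.93 fold with Dox (0.95 ± 0.08, adjusted p = 0.0025). The next in order was Sars1, the serine enzyme, at 0.69 and 0.50 with Dox+4μ8c and 0.68 and 0.81 with Dox (0.75 ± 0.08 with Dox, adjusted p = 0.0049). Tars1, the threonine enzyme, had 0.53 and 0.44 with Dox+4μ8c and 0.70 and 0.64 with Dox. Its change of 0.67 ± 0.05 with Dox had the lowest adjusted p of the members, 0.0019. Aars1, the alanine enzyme, had 0.52 and 0.47 with Dox+4μ8c and 0.58 and 0.70 with Dox (0.64 ± 0.06 with Dox, adjusted p = 0.0034). In all 4 genes both experiments gave a difference of the same sign, and the changes with Dox of Sars1, Tars1 and Aars1 lay within 2 SE of each other.

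A second group rose by 0.43 to 0.57 with Dox. Mars1, the methionine enzyme, had 0.73 and 0.43 with Dox+4μ8c and 0.79 and 0.34 with Dox, with a change of 0.57 ± 0.10 with Dox (adjusted p = 0.029). Lars1, the leucine enzyme, had 0.54 and 0.29 with Dox+4μ8c and 0.60 and 0.51 with Dox (adjusted p with Dox 0.0082). Yars1, the tyrosine enzyme, had 0.55 and 0.39 with Dox+4μ8c and 0.56 and 0.52 with Dox (adjusted p with Dox 0.0049). In Lars1 and Yars1 the Dox arrays of the 2 experiments were within 0.1 of each other, and in Mars1 experiment 1 gave the larger rise in both groups. Cars1, the cysteine enzyme, had 0.57 and 0.30 with Dox+4μ8c and 0.63 and 0.44 with Dox (adjusted p with Dox 0.011). Wars1, the tryptophan enzyme, had 0.49 and 0.33 with Dox+4μ8c and 0.49 and 0.46 with Dox (adjusted p with Dox 0.0070). Iars1, the isoleucine enzyme, had 0.36 and 0.26 with Dox+4μ8c and 0.45 and 0.41 with Dox (adjusted p with Dox 0.0066). These neighbours in the order, from Mars1 at 0.57 to Iars1 at 0.43, differed by less than 2 SE of the Mars1 change.

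The smaller rises that passed were those of Hars1, the histidine enzyme, and Farsb, the β subunit of the phenylalanine enzyme. Hars1 had 0.26 and -0.01 with Dox+4μ8c and 0.41 and 0.36 with Dox (0.39 ± 0.07 with Dox, adjusted p = 0.032). Farsb had 0.34 and 0.29 with Dox+4μ8c and 0.24 and 0.26 with Dox (0.25 ± 0.05 with Dox, adjusted p = 0.034). Its partner Farsa, the α subunit of the same enzyme, had 0.08 and -0.01 with Dox+4μ8c and 0.00 and 0.11 with Dox, and its change of 0.05 with Dox had an adjusted p of 0.65. The 2 subunits thus had unlike results in the same test, and the difference between them was not tested.

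The other 7 cytosolic genes did not pass with Dox. Eprs1, a bifunctional enzyme for glutamate and proline, missed the threshold with a change close to that of Aars1. It had 0.97 and 0.60 with Dox+4μ8c and 0.95 and 0.31 with Dox, a change of 0.63 ± 0.14 with Dox (adjusted p = 0.051). Gars1, the glycine enzyme, had 0.48 and 0.11 with Dox+4μ8c and 0.42 and 0.08 with Dox (adjusted p with Dox 0.21), and was thus above untreated mainly in experiment 1. The changes with Dox of Qars1 (glutamine), Rars1 (arginine) and Vars1 (valine) were 0.19, 0.10 and 0.09, each with a value above 0 in both experiments. Kars1, the lysine enzyme, was the lowest of the cytosolic genes, at 0.03 and -0.21 with Dox+4μ8c and 0.03 and -0.28 with Dox (-0.13 ± 0.08 with Dox, adjusted p = 0.42). Gars1 and Kars1 each encode both the cytosolic and the mitochondrial form of their enzyme.

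Synthetases fall into class I and class II by the fold of their catalytic domain, and some of the cytosolic ones are held in a multi-synthetase complex. With Dox, 6 of 10 class I and 6 of 9 class II cytosolic genes passed, with median changes of 0.50 and 0.39. Among 7 listed genes of the complex (Eprs1, Iars1, Kars1, Lars1, Mars1, Qars1 and Rars1) 3 passed, with a median of 0.43, and among the 12 outside it 9 passed, with a median of 0.50. The ranges overlapped, with -0.13 to 0.63 inside the complex and 0.05 to 0.95 outside it.

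With IRE1 inhibited, 12 of the cytosolic synthetases passed as higher than in untreated cells. Against untreated cells, Dox+4μ8c thus left 12 of 19 cytosolic genes higher and 0 lower (13 at an unadjusted p under 0.05), beside 1.17% of all genes called higher and 1.13% called lower. The median cytosolic change was 0.41, against 0.03 over the 13 mitochondrial genes, of which 0 were higher and 1, again Fars2, was lower. The difference between these medians was 0.38, with 0.49 in experiment 1 and 0.24 in experiment 2, and thus 0.24 without untreated replicate 1 or Dox+4μ8c replicate 1. The mitochondrial median in experiment 1 was 0.00, with 5 of the 13 genes tied exactly with untreated. The largest cytosolic change was that of Eprs1 at 0.79 ± 0.14 (1.72 fold, adjusted p = 0.0495), followed by Nars1 at 0.69 ± 0.08 (adjusted p = 0.015), Sars1 at 0.60 ± 0.08 (adjusted p = 0.022) and Mars1 at 0.58 ± 0.10 (adjusted p = 0.04997). Hars1 passed with Dox but not with Dox+4μ8c, where its change was 0.13 (adjusted p = 0.48), and Eprs1 passed with Dox+4μ8c but not with Dox. Both comparisons share the untreated arrays. The 12 calls rest on every untreated and Dox+4μ8c array: the count was 0 without untreated replicate 1 or without either Dox+4μ8c array, 3 without untreated replicate 2, and 0 without the experiment term (15 at an unadjusted p under 0.05).

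**Figure D2:**
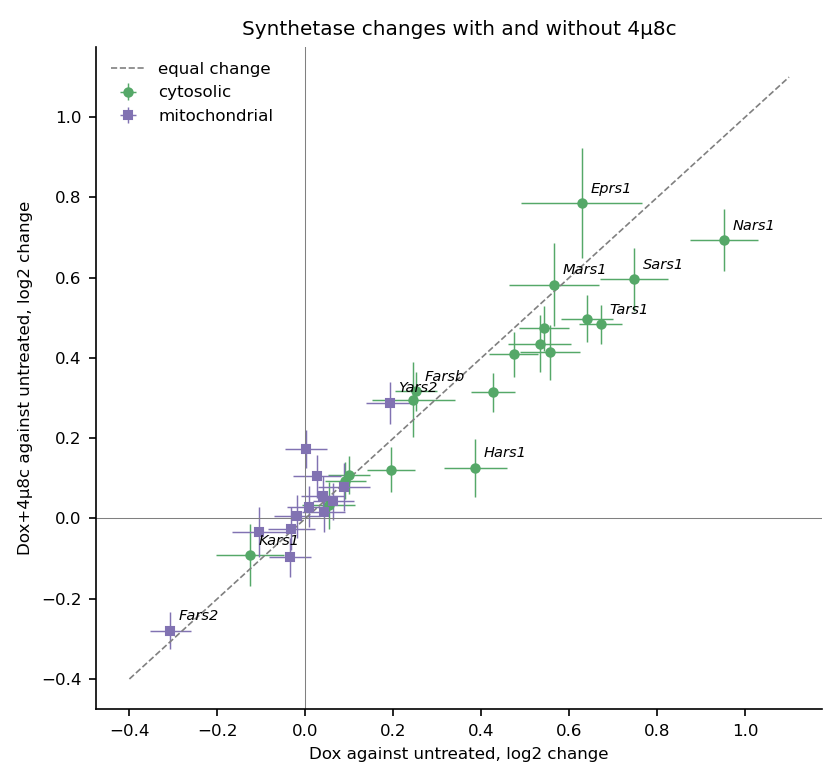
Log2 change against untreated with Dox (horizontal) and with Dox+4μ8c (vertical) for 19 cytosolic (green circles) and 13 mitochondrial (purple squares) synthetases, with SE bars and a dashed line of equal change. Of the cytosolic genes 12 lie below the line, by up to 0.26, and Eprs1 lies 0.16 above it. Both axes share the untreated arrays.

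The direct comparison of Dox+4μ8c with Dox asked whether IRE1 inhibition changed the synthetase mRNAs. By limma 0 of 32 members passed in either direction, beside 0.175% of all genes called higher and 1.61% called lower. At an unadjusted p under 0.05, 4 cytosolic genes were lower (Aars1, Hars1, Nars1 and Tars1) and 1 mitochondrial gene was higher (Ears2). The median difference was -0.07 over the cytosolic genes (-0.00 in experiment 1 and -0.13 in experiment 2) and 0.02 over the mitochondrial genes, with -0.01 over all genes. The lowest was Hars1 at -0.26 (95% interval -0.44 to -0.09, adjusted p = 0.20), followed by Nars1 at -0.26 (-0.45 to -0.07, adjusted p = 0.24) and Tars1 at -0.19 (-0.31 to -0.07, adjusted p = 0.17). All 3 differences were below 0 in both experiments. The unadjusted intervals of Aars1 (-0.28 to -0.00) and Ears2 (0.06 to 0.29) also left out 0. Those of the remaining members held 0, for example -0.21 to 0.07 for Yars1 and -0.18 to 0.49 for Eprs1. In experiment 2 this comparison rests on Dox replicate 2, the array that stood apart.

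**Figure D3:**
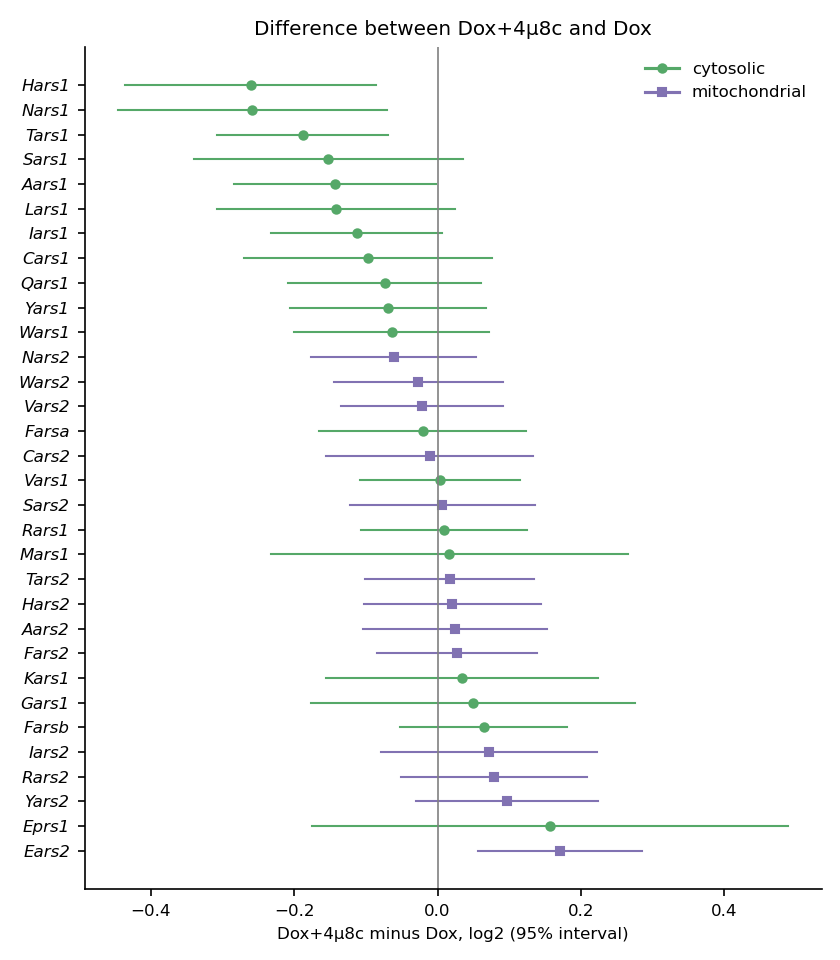
Difference between Dox+4μ8c and Dox for each of the 32 synthetases (log2, mean of both experiments) with its unadjusted 95% interval from limma, ordered from lowest to highest, with cytosolic genes in green and mitochondrial genes in purple. Differences ran from -0.26 (Hars1) to 0.17 (Ears2).

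How much of a rise was kept under the inhibitor can be given as a percentage, the change with Dox+4μ8c over the change with Dox. Over the 12 cytosolic genes called with Dox its median was 78.7% (90.9% in experiment 1 and 67.6% in experiment 2), with 32.7% for Hars1 at the low end (62.6% in experiment 1 and -1.92% in experiment 2) and 125% for Farsb at the high end (143% and 110%). For Nars1 it was 72.9% (80.4% and 63.5%), and for Wars1 86.5% (99.7% and 72.4%). The value of Farsb joins 2 probesets, both above untreated, whose differences between Dox+4μ8c and Dox had opposite signs. One changed by 0.38 with Dox+4μ8c and 0.45 with Dox, the other by 0.25 and 0.05. In the same arrays the XBP1-dependent Dnajb9 kept 15.9% of its rise (30.8% and -1.82%) and Atf4, which encodes the transcription factor of the amino acid response, kept 83.3%. These shares are descriptions, since both changes use the same untreated arrays.

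The mitochondrial enzymes were close to untreated cells in both groups, in experiment 1 partly through the exact ties given below. Fars2, the mitochondrial phenylalanine enzyme, was the exception that passed, with -0.28 and -0.27 with Dox+4μ8c and -0.33 and -0.29 with Dox. All 4 treated arrays were below the untreated array of their experiment, and the change was -0.28 ± 0.05 with Dox+4μ8c (adjusted p = 0.044) and -0.31 ± 0.05 with Dox (adjusted p = 0.016). Over the alternative fits, of which some repeat each other, its change was -0.29 to -0.27 with Dox+4μ8c and -0.33 to -0.29 with Dox. Its calls did not hold in all of them. Yars2, the mitochondrial tyrosine enzyme, had 0.32 and 0.26 with Dox+4μ8c and 0.16 and 0.23 with Dox, all above untreated, and did not pass in either group (adjusted p = 0.054 with Dox+4μ8c and 0.098 with Dox). It passed with Dox+4μ8c when either Dox array was left out (adjusted p = 0.015), and with Dox when Dox replicate 1 was (0.046). Ears2, the mitochondrial glutamate enzyme, had 0.20 and 0.15 with Dox+4μ8c and -0.01 and 0.01 with Dox. It did not pass in any comparison (adjusted p = 0.14 for Dox+4μ8c against untreated).

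The remaining 10 mitochondrial genes had changes of -0.10 (Nars2) to 0.10 (Rars2) with Dox+4μ8c and of -0.10 (Iars2) to 0.09 (Cars2) with Dox. Exact ties were frequent among them. By gene, 3 of the 13 mitochondrial genes tied with untreated under Dox in experiment 1 and 5 under Dox+4μ8c, against 1 and 0 of the 19 cytosolic genes. In experiment 1, 5 of the 16 mitochondrial probesets (31.2%) had the same value on all 3 arrays, those of Cars2 and Iars2 and 1 each of Hars2, Tars2 and Wars2, against 2 of the 33 cytosolic probesets (6.06%), 1 each of Kars1 and Vars1. A value of 0.00 in experiment 1 is therefore no measured constancy for these probesets, and the changes of Cars2 and Iars2 rest on experiment 2. In experiment 2, Iars2 had -0.07 with Dox+4μ8c and -0.21 with Dox, and Cars2 had 0.16 with Dox+4μ8c and 0.18 with Dox.

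Cytosolic and mitochondrial enzymes for the same amino acid can be set side by side. Nars1 and Nars2 changed by 0.69 and -0.10 with Dox+4μ8c and by 0.95 and -0.04 with Dox. For serine, Sars1 and Sars2 changed by 0.60 and -0.03 with Dox+4μ8c and by 0.75 and -0.03 with Dox. For tyrosine, where the mitochondrial gene was the highest of its form, Yars1 and Yars2 changed by 0.47 and 0.29 with Dox+4μ8c and by 0.54 and 0.19 with Dox. For valine and arginine neither form passed, with 0.09 for Vars1, 0.06 for Vars2, 0.10 for Rars1 and 0.03 for Rars2 with Dox. For phenylalanine, Fars2 changed by -0.31 with Dox, and the cytosolic subunits by 0.05 (Farsa, not past the test) and 0.25 (Farsb, whose 2 probesets read 0.45 and 0.05).

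Several members were read by more than 1 probeset, and these did not always give the same change. The 32 members had 49 probesets, and 14 members had more than 1. On Dox replicate 2 the 3 probesets of Eprs1 read 0.79, 0.49 and -0.36, while on Dox replicate 1 they read 0.81, 0.99 and 1.05. The probeset at -0.36 read 0.57 on Dox+4μ8c replicate 2, so that it contributed to the low value of Eprs1 on Dox replicate 2. The probeset at 0.49 was also below its value of 0.99 on Dox replicate 1. With the median of the probesets in place of their mean, Eprs1 passed with Dox (adjusted p = 0.015). The 2 probesets of Mars1 read 0.62 and 0.06 on Dox replicate 2, those of Gars1 0.26 and -0.11, and those of Kars1 0.01 and -0.57.

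The range between probesets of 1 gene on Dox replicate 2 had a median of 0.32 over these 14 synthetases, beside 0.19 over all 3839 genes with more than 1 probeset. On the other treated arrays the medians for the synthetases were 0.19 (Dox+4μ8c replicate 1), 0.13 (Dox+4μ8c replicate 2) and 0.20 (Dox replicate 1), beside 0.073, 0.14 and 0.081 over all such genes. The 4 probesets of Cars1 read 0.24 to 0.84 on Dox replicate 1 and 0.22 to 0.68 on Dox replicate 2, all above untreated. Those of Iars1 were the furthest apart of the members on Dox+4μ8c replicate 1, at 0.73 and 0.00 (a tie with untreated). They read 0.44 and 0.09 on Dox+4μ8c replicate 2, 0.72 and 0.18 on Dox replicate 1, and 0.60 and 0.21 on Dox replicate 2. The positions of the probesets on the transcripts were not used here, and the part of the 5′ to 3′ shift of Dox replicate 2 in these differences was not tested.

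**Figure D4:**
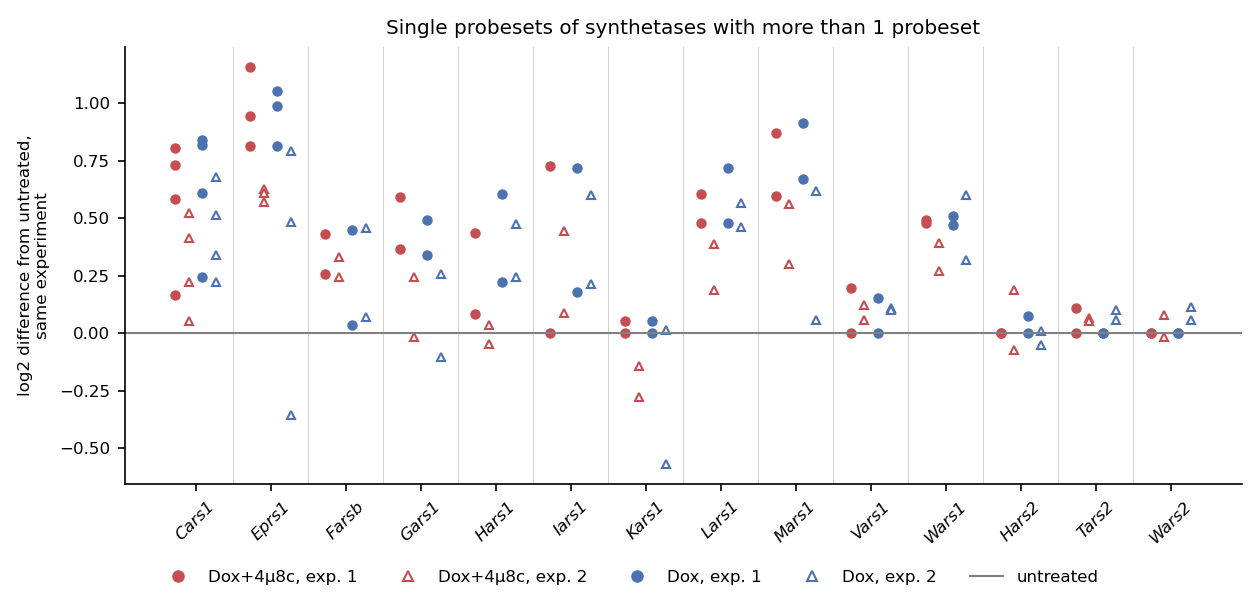
Each probeset of the 14 synthetases with more than 1 probeset, as the log2 difference from the untreated array of the same experiment (grey line at 0), for Dox+4μ8c (red) and Dox (blue) in experiment 1 (filled circles) and experiment 2 (open triangles). On Dox replicate 2 (open blue triangles) 1 probeset of Eprs1 is at -0.36 and 1 of Kars1 at -0.57, below the other probesets of these genes.

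Many synthetase genes are known targets of ATF4, which binds C/EBP-ATF response elements together with C/EBP-family partners. The RefSeq promoter windows of rat build GRCr8, from 250 bases before to 50 bases after the annotated start, were searched for the core of this element, TGATGNAA, on either strand. Windows were present for 17 of 19 cytosolic genes (Gars1 and Rars1 had none) and for all 16 mitochondrial genes. The core was found in 7 of 17 cytosolic windows (41.2%) and in 0 of 16 mitochondrial windows, beside 4.16% of 27457 genes with a window and 2.14% of the 10430 array genes with one. Among all array genes with a window, the synthetases included, it was present in 6.44% of 481 called higher and 0.995% of 201 called lower with Dox. A match is a description of the letters and not of binding, and its absence says nothing of the factor beyond this window.

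All 7 genes with a match were called higher both with Dox+4μ8c (0.31 to 0.69) and with Dox (0.43 to 0.95), and the matches of 6 are shown for that reason. Of all 223 array genes with a match, these 7 included, 31 were called higher with Dox, beside 481 of all 10430 array genes with a window. Each line gives the strand of the gene from 5′ to 3′, with the matched bases in capitals (TTGCATCA is the core read on the other strand).
Cars1 (chr1:208225334-208225363, minus strand): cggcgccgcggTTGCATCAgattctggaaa
Iars1 (chr17:15193658-15193687, minus strand): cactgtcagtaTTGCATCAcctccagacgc
Mars1 (chr7:65023752-65023781, minus strand): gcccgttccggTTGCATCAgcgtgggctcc
Nars1 (chr18:60275778-60275807, minus strand): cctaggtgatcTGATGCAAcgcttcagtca
Tars1 (chr2:62114811-62114840, minus strand): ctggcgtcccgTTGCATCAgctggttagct
Yars1 (chr5:146820190-146820212, plus strand): acgagctcagcTGATGCAAcctg

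The 6 printed matches share 1 form of the core, with C at the free position. Iars1, Mars1, Nars1 and Tars1 carried it just before the annotated start used for the window, with the first matched base 24, 17, 14 and 27 bases before it. The annotated bounds of Iars1 and Mars1 reach further upstream than this start, so that their matches lie inside those bounds. In Cars1 and Yars1 the match lay after the start. Of the 10 cytosolic genes with a window but no match 5 were called higher with Dox, with changes of -0.13 to 0.75 and a median of 0.32. The largest of these were Sars1 and Eprs1, so that a match was not present in every gene with a large change. The core of the UPR element bound by XBP1 and ATF6 (TGACGTGG, either strand) was found in 0 member windows and in 0.681% of genes, and the longer ER stress response element (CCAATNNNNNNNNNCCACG, either strand) in 0 member windows and 0.0765% of genes.

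**Figure D5:**
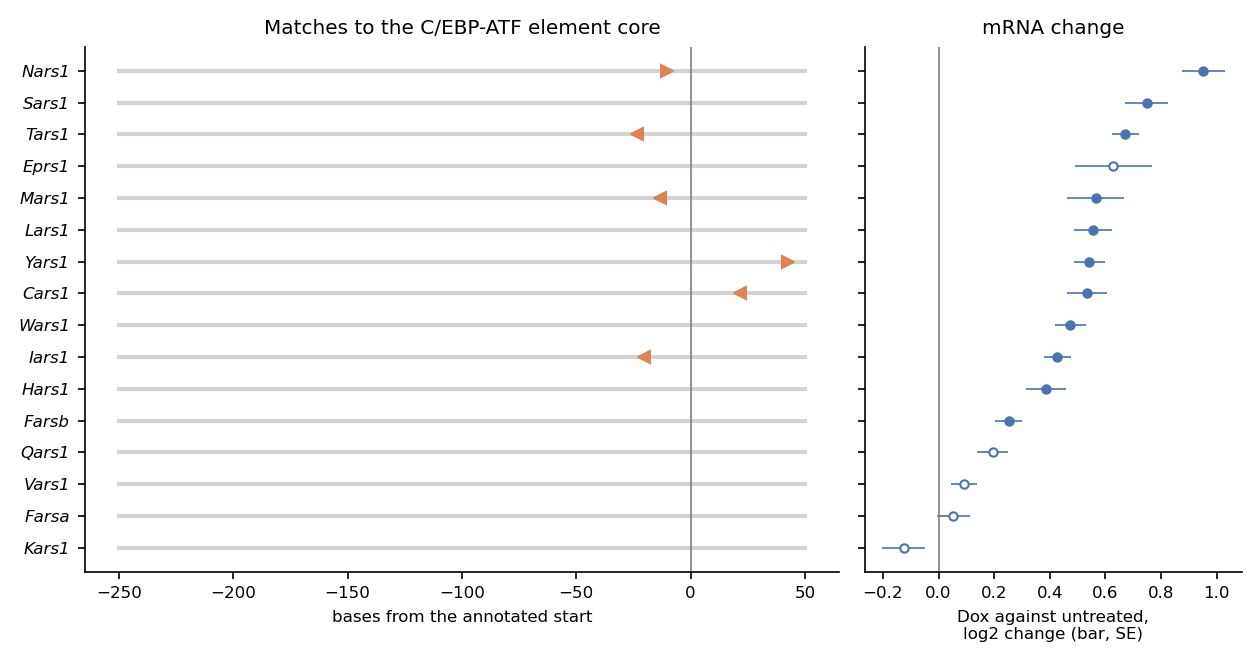
Left, position of each match to the C/EBP-ATF element core (orange triangles, pointing right on the strand of the gene and left on the other strand) in the promoter windows of 16 cytosolic synthetases, in bases from the annotated start. Right, log2 change with Dox against untreated with its SE (filled, called higher; open, not called); genes are ordered by this change, and the 6 genes with a match drawn here lie between 0.43 and 0.95.

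Hars1 and Hars2, the cytosolic and mitochondrial histidine enzymes, lie head to head, with annotated starts 144 bases apart on chromosome 18. The 97 bases between the genes are shown because the 2 genes share them and, of the 2, only Hars1 passed with Dox.
Hars1 and Hars2 (chr18:28672713-28672809, minus strand): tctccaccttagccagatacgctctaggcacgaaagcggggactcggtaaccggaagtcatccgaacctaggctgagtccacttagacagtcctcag
With Dox, Hars1 changed by 0.39 (adjusted p = 0.032) and Hars2 by 0.01 (adjusted p = 0.94). Hars2 had 0.00 and 0.06 with Dox+4μ8c and 0.04 and -0.02 with Dox. Its 2 probesets read 0.19 and -0.07 on Dox+4μ8c replicate 2, and 1 of them was tied on all 3 arrays of experiment 1. The stretch held no match to the C/EBP-ATF core. The difference between the 2 genes was not tested.

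Genes that work with the synthetases were taken from lists of partners, tRNA maturation factors and sensors of uncharged tRNA. Against untreated cells, 4.42% of all genes were called higher and 2.01% lower with Dox, and 1.17% and 1.13% with Dox+4μ8c. Counts of 0 or 1 in the lists of partners and of tRNA maturation are near these shares. Of 13 measured partners 0 passed in any comparison (0 at an unadjusted p under 0.05 with Dox and 3 with Dox+4μ8c against untreated). These include the scaffold proteins of the multi-synthetase complex, which changed by 0.15 (Aimp1), 0.06 (Aimp2) and 0.13 (Eef1e1) with Dox+4μ8c and by 0.08, 0.02 and 0.11 with Dox. Of 20 measured genes of tRNA maturation and nuclear export 1 passed, in both comparisons with untreated cells. This was Xpot, the exportin that carries tRNA out of the nucleus, at 0.98 and 0.73 with Dox+4μ8c and 0.98 and 0.91 with Dox. Its rise of 0.94 ± 0.07 with Dox (adjusted p = 0.0020) lay within 1 SE of that of Nars1, and Dox+4μ8c differed from Dox by -0.09 (adjusted p = 0.68).

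The tRNA ligase gene Rtcb, whose product also joins the exons of XBP1 mRNA after IRE1 has cut it, changed by 0.08 with Dox+4μ8c and 0.12 with Dox and did not pass. Among 4 genes that sense uncharged tRNA or act directly below, Atf4 passed, at 0.93 and 0.71 with Dox+4μ8c and 1.08 and 0.89 with Dox (0.99 ± 0.07 with Dox, adjusted p = 0.0016). Eif2ak4, which encodes the kinase GCN2, its activator Gcn1 and its inhibitor Impact changed by -0.02 to 0.01 with Dox+4μ8c and by -0.04 to -0.02 with Dox. The values of Eif2ak4 and Gcn1 in experiment 1 were 0.00 in both groups, exact ties with the untreated array, so that their changes rest on experiment 2. The difference between Dox+4μ8c and Dox for Atf4 was -0.16 (95% interval -0.32 to -0.01, adjusted p = 0.43).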

How the data were processed

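The authors hybridized 200 ng of total RNA per sample to Affymetrix 3′ IVT rat arrays. The deposited values are log2 signals made with RMA (version not given in the sources used here) and centred per probeset within an experiment. Of 25476 probesets, 100% had a 3-array median of 0 in experiment 1 and 0.836% in experiment 2, where 1 more array could bring 100% to 0. That array was not analysed here. Signal levels and detection are lost, and the number of arrays limits the precision.

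The 17978 probesets assigned to 1 symbol were averaged on the log2 scale into 12603 genes, with no filter. Probesets with several symbols (378) or none (7068) and 52 controls were left out. Groups were compared by lmFit and eBayes of limma 3.58.1 (R 4.3.3; two-sided, 3 groups with the experiment as a block, Benjamini-Hochberg over all genes of a contrast; 2 residual and 4.25 prior degrees of freedom). The replicate number was taken as the experiment from the published methods and the centring. Deviations from group means correlated between same-numbered arrays with r of 0.03 to 0.10 over genes, which the centring makes uninformative. Only spread between these arrays is measured. The fits were checked on simulated data. Counts and figures used Python 3.11.15, pandas 2.3.3, numpy 2.4.6 and matplotlib 3.10.9.

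Promoter windows came from RefSeq (GRCr8) and covered 33 of 35 members by symbol; 1 window was counted but is not reported here. All members, related genes past a test in any contrast, and Atf4, Ddit3, Trib3, Dnajb9 and Xbp1 were to be named, and other genes were named after their values were seen. The members, lists and tests were chosen with earlier results of these data known. Alternatives were no block, other probeset summaries, array centring, robust eBayes, 2 groups in the fit and leaving out each array. They are not all distinct. Leaving out an array of the group not compared repeats the fit with 2 groups. Dropping probesets marked _s_at or _x_at changes no member value, since no member has one. The median over probesets equals the mean for members with 1 or 2 probesets.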

Additional observations from a re-analysis of the deposited data

How the results depend on the processing

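No synthetase that passed its test changed direction under any alternative, while changes near 0 that did not pass could change sign. Alternatives are given for the synthetases only. Without the replicate block (the pairing of arrays by experiment) the count of cytosolic synthetases called higher was 0 with Dox+4μ8c, against 12 with it, and 1 with Dox, against 12 with it, and 13 and 11 of the 13 members called in each comparison no longer passed. The unblocked fit called 0 (Dox+4μ8c) and 303 (Dox) of all 12603 genes higher; the cause was not tested. Leaving out 1 array at a time gave 0 to 12 cytosolic genes called higher with Dox+4μ8c and 5 to 14 with Dox, with 5 in the fit without untreated replicate 1. The mitochondrial count higher was 0 to 1 in both comparisons when arrays were left out, and 1 with 2 groups in the fit (Dox+4μ8c against untreated). That gene was Yars2 (adjusted p = 0.015 with Dox+4μ8c in those fits, and 0.046 with Dox without Dox replicate 1). The difference between the cytosolic and mitochondrial medians with Dox was 0.33 to 0.49 when arrays were left out, with 0.33 without Dox replicate 1 or untreated replicate 1, and 0.24 to 0.49 with Dox+4μ8c. The calls of Fars2 did not hold in all alternatives, over which its change was -0.29 to -0.27 with Dox+4μ8c and -0.33 to -0.29 with Dox. Dox+4μ8c against Dox gave 0 calls among the members in the fit reported, with 4 cytosolic genes lower at an unadjusted p under 0.05. The alternatives gave no call among the members either, but they are not 12 separate checks, since some repeat each other. Fits that left 1 Dox+4μ8c array called no gene lower, member or not, and so cannot show an absence. Genes called higher in those fits were not counted over all genes. With an array left out its group has 1 array, which is assumed to vary like the others.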
